A study of Mus musculus with 12 samples.

Results

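The ATM and ATR checkpoint genes are the 10 genes Atm, Atr, Atrip, Chek1, Chek2, Topbp1, Hus1, Rad9a, Rad17 and Clspn, chosen by name among the 18193 genes measured, and all 10 were measured and passed the filter on low values. Whole mouse embryos at E10.5 of 4 genotypes were compared, with 3 samples each. The double mutants were homozygous for acd and lacked p53 (Acd acd/acd, p53-/-), the acd embryos were homozygous for acd with p53 present, the p53 embryos lacked p53 alone (p53-/-), and the wt embryos carried neither mutation. Acd encodes TPP1, a shelterin protein that protects chromosome ends, and acd is known as a spontaneous allele that leaves little normal TPP1. The labels call the replicates biological and give neither litter, strain nor sex, nor whether a sample is 1 embryo or a pool. The p-values therefore set differences of means against the spread between these samples alone, pooled over the 4 genotypes. A whole embryo mixes all its tissues. Where a gene had several probe sets the brightest on average was used, as RMA log2 expression. On this scale a difference of 1 is a doubling of the signal, and levels of different genes cannot be compared.

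ATM and ATR are large protein kinases that start the DNA damage checkpoint. ATM answers to double-strand breaks and phosphorylates the effector kinase CHK2. ATR, held on single-stranded DNA by its partner ATRIP, answers to stalled replication forks and phosphorylates CHK1. For ATR to act, a loader containing RAD17 places a ring-shaped clamp, of which RAD9A and HUS1 are subunits, on DNA, TOPBP1 binds the clamp and switches ATR on, and claspin (Clspn) brings CHK1 to it. Unprotected telomeres are known to set off both kinases, and p53 is one of their targets. Most of this signalling runs through phosphorylation, which RNA levels do not show, and early mouse embryos without Atr or Chek1 are known to die.

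In acd and p53 embryos the 10 transcripts lay between -0.27 and 0.16 of the wt mean in each array. In double mutants they split by sample: most were low in replicate 1, several were low in replicate 2, and replicate 3 lay near wt. None of the 10 passed limma's test in any comparison, and the largest fitted difference of double mutants from p53 embryos was that of Hus1 (log2 -0.45 ± 0.16 SE, adjusted p = 0.463). Replicates 1 and 2 are also the arrays that stood apart over all genes, with a median correlation of 0.972 and 0.987 to the rest, against 0.995 to 0.997 for each of the other 10 arrays. Their interferon response list (7 of 9 genes measured) averaged 4.499 and 4.033 above the wt mean, against 0.27 in replicate 3 and -0.04 to 0.24 in the other genotypes. Only 3 of these 7 genes passed the filter. Those that did not lay below the array medians in wt embryos, as did Usp18, which passed (3.72 to 3.91 in wt). The averages are therefore at best lower bounds. Their macrophage marker list (12 of 12 measured) averaged 1.43 and 0.94 above it, against -0.16 in replicate 3 and -0.23 to 0.15 in the other genotypes. Their visceral endoderm and liver list (8 of 8 measured) averaged 1.570 and 1.4997, against 0.32 in replicate 3, and reached 1.34 in p53 replicate 2. Other lists divided the double mutants differently. Heart muscle markers averaged -0.35, -0.14 and -0.52 in double mutants 1 to 3, against -0.03 to 0.10 in the other genotypes. Neuron markers averaged 0.09, 0.61 and -0.09, against -0.52 to 0.13, and primitive erythroid markers 0.53, 0.26 and -0.44, against -0.45 to 0.50. The part of these in the checkpoint values was not tested, and in whole embryos fewer cells of a type and less RNA per cell cannot be told apart.

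Acd itself measured 8.24 to 8.44 in double mutants and 8.22 to 8.31 in acd embryos, against 8.84 to 9.05 in p53 embryos and 8.988 to 8.999 in wt embryos, so every array lay on the side its Acd genotype gives. Whether p53 was present was not checked in this way. The p53 target readouts (7 of 7 measured), transcripts that p53 switches on, averaged -0.27 relative to the wt mean in acd replicate 1, against 0.65 and 0.81 in acd replicates 2 and 3, -0.38 to -0.28 in p53 embryos and -0.15 to 0.09 in wt embryos. Of these 7, 6 passed the filter. The other, Eda2r, measured 5.58 and 5.97 in acd replicates 2 and 3 and 3.55 to 4.42, below the array medians, elsewhere. Of the tissue markers, all measured ones of neural progenitors, neurons, heart muscle, somites, limb bud and primitive erythroid cells passed the filter. Of 5 measured trophoblast markers 2 passed, while the placental marker Tpbpa lay at 3.16 to 3.57, below the array medians of 5.325 to 5.401. Y-linked transcripts were present in double mutant replicate 1, in all acd and p53 embryos and in wt replicate 1, so sex differed between the genotypes.

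The promoters of Hus1, Atr, Clspn and Atrip, the members whose fitted differences between double mutants and p53 embryos were the largest, are shown to give the DNA upstream of the transcripts that differed most. They are RefSeq sequences of build GRCm38.p6, from 250 bases before to 50 after the annotated start, in the direction of the gene. Hus1 lies on the minus strand at chr11:9011142-9011441, Atr on the plus strand at chr9:95857347-95857646, Clspn on the plus strand at chr4:126556730-126557029 and Atrip on the minus strand at chr9:109074075-109074374. Capitals mark matches, on either strand, to TTTCGCGC, TTTGGCGC or TTTCCCGC (letters of the E2F type, bound by factors that time S phase genes), to CCAAT, or to CATGCCC (letters found within p53 sites).
Hus1: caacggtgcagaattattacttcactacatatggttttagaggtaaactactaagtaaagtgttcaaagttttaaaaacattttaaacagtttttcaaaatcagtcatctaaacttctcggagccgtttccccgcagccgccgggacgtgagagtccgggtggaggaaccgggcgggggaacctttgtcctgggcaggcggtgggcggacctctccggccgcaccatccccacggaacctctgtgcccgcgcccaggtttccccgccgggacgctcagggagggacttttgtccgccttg
Atr: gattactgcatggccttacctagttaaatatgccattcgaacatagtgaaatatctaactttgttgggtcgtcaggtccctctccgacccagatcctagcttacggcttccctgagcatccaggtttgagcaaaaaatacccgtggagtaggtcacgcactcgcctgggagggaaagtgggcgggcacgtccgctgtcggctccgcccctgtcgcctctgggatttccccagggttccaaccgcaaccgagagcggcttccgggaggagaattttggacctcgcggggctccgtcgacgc
Clspn: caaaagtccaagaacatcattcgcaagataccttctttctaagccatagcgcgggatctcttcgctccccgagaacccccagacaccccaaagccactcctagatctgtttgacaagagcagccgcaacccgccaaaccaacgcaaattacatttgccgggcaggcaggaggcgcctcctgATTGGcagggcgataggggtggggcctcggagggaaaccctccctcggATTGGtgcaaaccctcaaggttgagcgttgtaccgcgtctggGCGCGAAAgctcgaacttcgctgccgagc
Atrip: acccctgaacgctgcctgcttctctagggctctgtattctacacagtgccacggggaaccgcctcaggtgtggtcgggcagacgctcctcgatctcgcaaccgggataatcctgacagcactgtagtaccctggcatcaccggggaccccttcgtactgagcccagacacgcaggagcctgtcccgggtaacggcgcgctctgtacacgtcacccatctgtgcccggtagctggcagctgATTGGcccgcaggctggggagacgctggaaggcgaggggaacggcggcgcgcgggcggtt
The Clspn promoter held TTTCGCGC on its opposite strand, from base 22 of the transcript, and CCAAT at 2 places, also on the opposite strand. Atrip held CCAAT alone, on the opposite strand 10 bases before the start, and the Hus1 and Atr windows held none of these letters. Of the 9 members with a promoter in the table, 3 (Chek2, Clspn and Topbp1) held E2F-type letters, against 1.84% of 32851 mouse promoters of this length. Only these exact spellings were counted. The members' promoters held more G and C, with a median of 58.0% against 52.7% over all promoters, and the shares were not adjusted for this. CCAAT was in 4 of 9, against 37.4%, and CATGCCC in 0 of 9, against 3.76%. A missing match says only that these letters are not in this window, and no motif searched was shared by all 4 members shown.

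**Figure D1:**
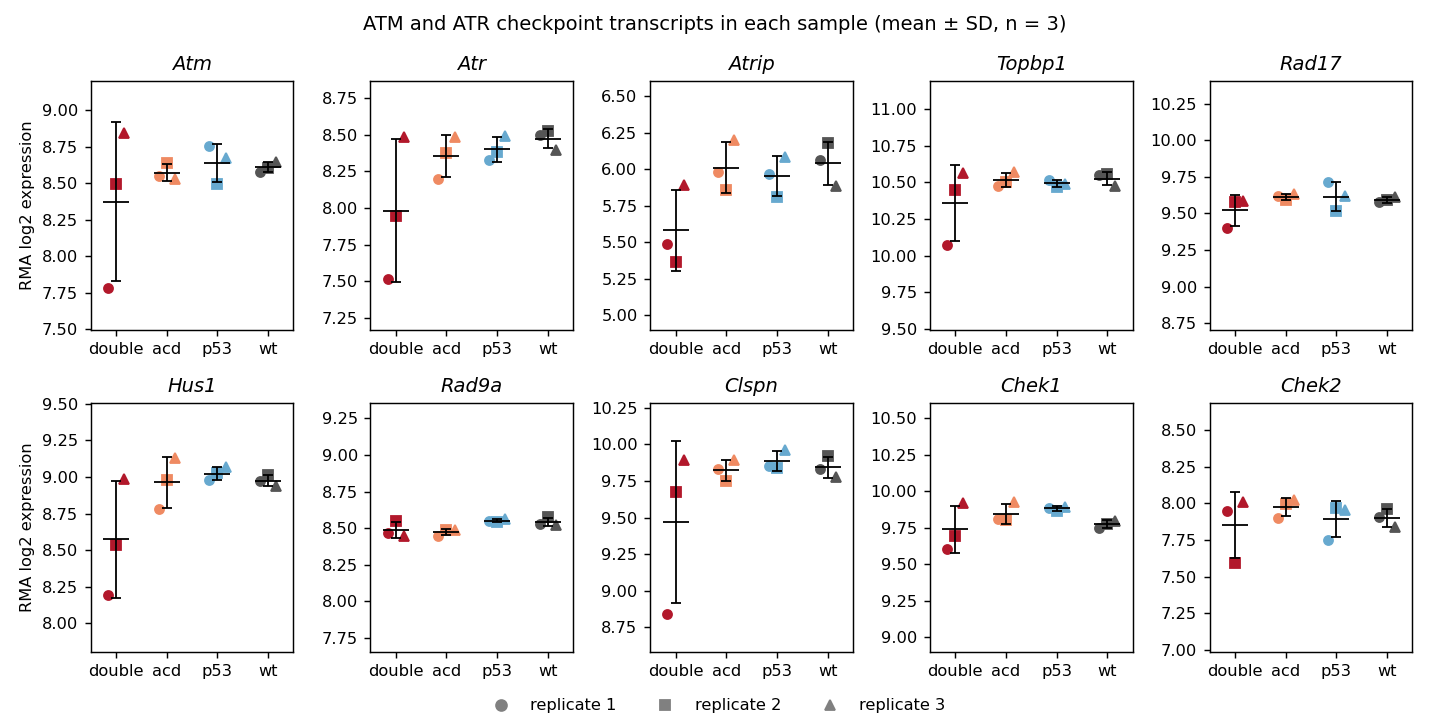
RMA log2 expression (y axis, each panel spanning the same height) of the 10 genes in double, acd, p53 and wt embryos; symbols are replicates and bars the mean ± SD of 3. Double mutants spread widely for Atm, Atr, Hus1 and Clspn, while the other genotypes sit close together.

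Among the kinases, Atm measured 7.78, 8.50 and 8.84 in double mutants 1 to 3, 8.55, 8.64 and 8.53 in acd embryos, 8.75, 8.50 and 8.67 in p53 embryos, and 8.58, 8.61 and 8.65 in wt embryos. Only double mutant 1 was low, and double mutant 3 was the highest of the 12. The fitted difference was -0.27 ± 0.20 in double against p53 (limma adjusted p = 0.548) and -0.04 ± 0.20 in acd against wt (adjusted p = 0.99997).

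Atr measured 7.51, 7.95 and 8.49 in double mutants, 8.20, 8.38 and 8.48 in acd embryos, 8.33, 8.38 and 8.49 in p53 embryos, and 8.50, 8.52 and 8.40 in wt embryos. Double mutants 1 and 2 lay below the other 10 arrays, and replicate 3 lay among them. The difference was -0.42 ± 0.19 in double against p53 (adjusted p = 0.463) and -0.12 ± 0.19 in acd against wt (adjusted p = 0.99997). Its partner Atrip measured 5.49, 5.36 and 5.89 in double mutants, 5.98, 5.85 and 6.20 in acd embryos, 5.97, 5.81 and 6.08 in p53 embryos, and 6.06, 6.18 and 5.88 in wt embryos. Double mutants 1 and 2 were again the lowest 2 arrays. These Atrip values lie near the array medians, where background can compress differences, and Atrip had 1 probe set. Its difference was -0.37 ± 0.14 in double against p53, -0.43 ± 0.14 in double against acd (adjusted p = 0.371) and -0.46 ± 0.14 in double against wt (adjusted p = 0.447).

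Topbp1, the ATR activator, measured 10.07, 10.45 and 10.56 in double mutants, 10.48 to 10.57 in acd embryos, 10.47 to 10.52 in p53 embryos and 10.47 to 10.56 in wt embryos. Apart from double mutant 1 its 11 values lay between 10.45 and 10.57. The difference was -0.13 ± 0.11 in double against p53 (limma adjusted p = 0.572).

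The clamp subunits and the loader had unlike values. Hus1 measured 8.19, 8.54 and 8.99 in double mutants, 8.78, 8.98 and 9.13 in acd embryos, 8.98, 9.03 and 9.07 in p53 embryos, and 8.97, 9.01 and 8.94 in wt embryos. Double mutants 1 and 2 were below all other arrays and acd replicate 1 was the next lowest. Its mean in double mutants was 0.731 of that in p53 embryos, 0.763 of that in acd embryos (adjusted p = 0.382) and 0.757 of that in wt embryos (adjusted p = 0.447). The clamp subunit Rad9a measured 8.46, 8.55 and 8.45 in double mutants, 8.45, 8.49 and 8.49 in acd embryos, 8.55, 8.54 and 8.56 in p53 embryos, and 8.53, 8.58 and 8.52 in wt embryos. All 12 values lay between 8.45 and 8.58, the narrowest range of the 10 genes. The difference in acd against wt was -0.07 ± 0.06 (limma adjusted p = 0.99997). The loader subunit Rad17 measured 9.40, 9.58 and 9.58 in double mutants, 9.59 to 9.63 in acd embryos, 9.52 to 9.71 in p53 embryos and 9.58 to 9.61 in wt embryos. Its difference was -0.09 ± 0.08 in double against p53 (limma adjusted p = 0.572). Every double mutant array lay below every acd array, as for 6.9% of all tested genes.

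The mediator Clspn measured 8.84, 9.67 and 9.89 in double mutants, 9.83, 9.75 and 9.89 in acd embryos, 9.85, 9.84 and 9.96 in p53 embryos, and 9.83, 9.92 and 9.78 in wt embryos. Its value in double mutant 1, at -1.003 from the wt mean, was the lowest relative to wt among the 10 genes. The difference was -0.42 ± 0.20 in double against p53 (limma adjusted p = 0.466), with an SD of 0.56 in double mutants against 0.07 in p53 embryos (n = 3 each).

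Of the effector kinases, Chek1 measured 9.61, 9.69 and 9.92 in double mutants, 9.81, 9.81 and 9.93 in acd embryos, 9.89, 9.87 and 9.89 in p53 embryos, and 9.75, 9.78 and 9.80 in wt embryos. The acd and the p53 means lay above the wt mean, by 0.07 ± 0.08 and 0.11 ± 0.08 (limma adjusted p = 0.99997 for both). The difference in double against p53 was -0.14 ± 0.08 (limma adjusted p = 0.485). Chek2 measured 7.95, 7.59 and 8.01 in double mutants, 7.90, 7.99 and 8.02 in acd embryos, 7.75, 7.97 and 7.96 in p53 embryos, and 7.90, 7.96 and 7.84 in wt embryos. It was low in double mutant 2 and not in double mutant 1, and its difference in double against p53 was -0.04 ± 0.11 (adjusted p = 0.876).

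**Figure D2:**
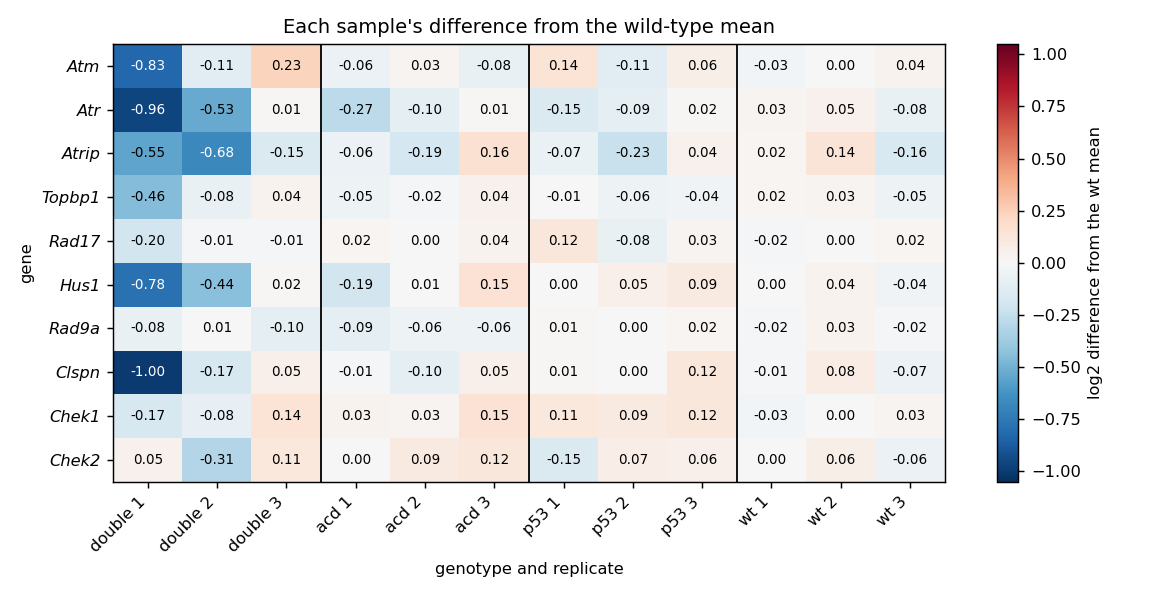
Colour and numbers give the log2 difference of each sample (columns, by genotype and replicate) from the wt mean of that gene (rows). Double mutant 1 is lowest for Clspn (-1.003) and Atr (-0.96), double mutant 2 for Atrip (-0.68) and Atr (-0.53), and double mutant 3 stays between -0.15 and 0.23.

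Counted by sample, 9 of 10 members lay below the range of the 3 wt arrays in double mutant 1, 8 of 10 in double mutant 2 and 1 of 10 in double mutant 3. The same count over all 13501 tested genes was 41.4%, 40.9% and 36.6%. The acd embryos had 4, 4 and 2 members below that range, against 25.7%, 36.9% and 33.7% of all genes, and the p53 embryos 2, 5 and 0, against 38.0%, 27.9% and 24.1%. The median of the 10 differences from wt was -0.51, -0.14 and 0.03 in double mutants 1 to 3, -0.06, -0.01 and 0.05 in acd embryos, and 0.01, -0.03 and 0.05 in p53 embryos. The median SD of the members between samples of a genotype was 0.27 in double mutants, 0.07 in acd, 0.08 in p53 and 0.04 in wt embryos, against 0.21, 0.07, 0.10 and 0.06 over all tested genes.

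The comparison of acd with wt embryos asks whether homozygous acd changes these transcripts while p53 is present. Of the 10 members 0 passed limma's test, against 0.0148% of all tested genes, and 0 had an unadjusted p under 0.05, against 1.77%. Differences ran from -0.12 for Atr to 0.07 for Chek1, with a median of -0.01 (-0.01 over all genes). With sex as a term the median was 0.11, with 9 of 10 members above 0 and 0 passing, and without acd replicate 1 it was -0.0013. All acd arrays held Y-linked transcripts, so the sex term rests on wt and double mutant arrays alone. Of the double mutants only replicate 1 held them, so within that genotype its low values cannot be told apart from sex. The members averaged -0.50 in that array, against -0.24 and 0.03 in double mutants 2 and 3. In wt embryos they averaged -0.003 in replicate 1, which held Y-linked transcripts, and 0.04 and -0.04 in replicates 2 and 3. The acd and p53 arrays averaged -0.07 to 0.06. The shift of the median with the sex term thus came mainly from double mutant 1. The part of sex was not tested. The p53 target readouts lay higher in 2 of the 3 acd embryos: Ccng1, cyclin G1, measured 8.34, 10.16 and 10.34 in acd embryos, against 9.22, 9.26 and 8.75 in wt embryos, and Cdkn1a, the cell cycle inhibitor p21, measured 8.02, 8.83 and 8.99, against 8.09, 8.09 and 8.04. Phlda3, an inhibitor of Akt signalling, measured 7.21, 8.06 and 8.16 in acd embryos, against 7.59, 7.71 and 7.35 in wt embryos. None of these 3 passed (limma adjusted p = 0.99997 each). In the acd embryos with high readouts, replicates 2 and 3, the members' medians were -0.01 and 0.05 relative to wt.

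The comparison of p53 with wt embryos asks what loss of p53 alone does to its upstream kinases. Of the 10 members 0 passed limma's test, against 0% of all genes, and 0 had an unadjusted p under 0.05, against 0.726%. Differences ran from -0.09 for Atrip to 0.11 for Chek1, with a median of 0.01 (-0.0036 over all genes), and 0.12 with sex as a term. That term again rests on wt and double mutant arrays alone, as all p53 arrays held Y-linked transcripts. The shift of the median again came mainly from double mutant 1. The SEs of 0.06 to 0.20 pool the spread of all 4 genotypes, double mutants included. Fitted on the p53 and wt arrays alone, Chek1 (0.11) again did not pass (limma adjusted p = 0.9996).

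The comparison of double mutants with p53 embryos asks what homozygous acd changes without p53. All 10 fitted differences were below 0, with a median of -0.20, against -0.01 over all tested genes, of which 52.0% were below 0. With sex as a term the median was -0.34, 9 of 10 lay below 0 (Chek2 at 0.0098) and 0 passed; all p53 arrays and 1 of the 3 double mutant arrays held Y-linked transcripts. Of the 10, 0 passed limma's test (0.00741% of all genes did), and 3 (Atr, Atrip and Hus1) had an unadjusted p under 0.05, against 10.7%. Every double mutant array lay below every p53 array for 0 members, against 5.01% of all genes. Without double mutant replicate 3, 4 members were lower and passed limma's test, against 13% of all genes: Hus1 (-0.66, adjusted p = 0.00677), Atr (-0.67, adjusted p = 0.00865), Atrip (-0.53, adjusted p = 0.0219) and Clspn (-0.63, adjusted p = 0.0436). Replicate 3 was the double mutant nearest wt, so this fit keeps replicates 1 and 2, both lower for these 4 genes. Without replicate 1 these 4 differences were -0.26, -0.18, -0.33 and -0.10, and none passed. Without replicate 2 they were -0.43, -0.40, -0.27 and -0.52, and again none passed. With replicate 3 as the only double mutant they were -0.03, 0.09, -0.06 and 0.01, and the median of the 10 was 0.02.

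**Figure D3:**
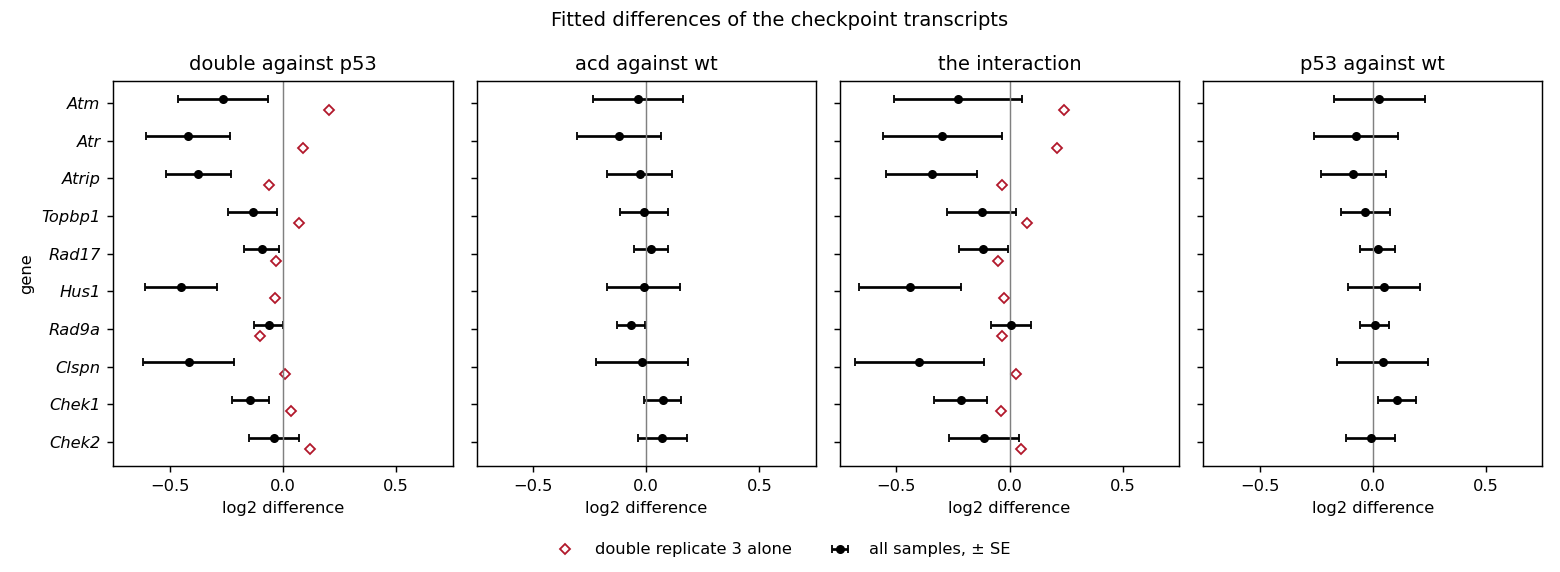
Black points give each gene's log2 difference ± SE in 4 comparisons (12 arrays, limma), and open diamonds, in the panels that use double mutants, the difference with replicate 3 as the only double mutant. The black points of double against p53 all lie below 0, from -0.45 for Hus1 to -0.04 for Chek2, while the diamonds of that panel lie between -0.10 and 0.20.

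The comparison of double mutants with acd embryos asks what loss of p53 changes when acd is homozygous. The median difference was -0.18 (-0.01 over all genes), with 9 of 10 below 0 and Rad9a at 0.01, and -0.19 without acd replicate 1. Of the 10, 0 passed limma's test, against 0% of all genes, and 2 (Atrip and Hus1) had an unadjusted p under 0.05, against 12.6%. Rad17 was the only member with every double mutant array below every acd array, against 6.9% of all genes. Without double mutant replicate 3, 3 members (Atr, Atrip and Hus1) were lower and passed limma's test (adjusted p 0.00871 to 0.0125), against 13.9% of all genes. Without replicate 1 these differences were -0.14, -0.38 and -0.20, and none passed, nor did any without replicate 2. With replicate 3 as the only double mutant they were 0.13, -0.12 and 0.03.

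Double mutants against wt embryos gives the combined difference, and shares its arrays with the other comparisons. The median was -0.20 (-0.01 over all genes), with 10 of 10 below 0, from -0.49 ± 0.19 for Atr and -0.46 ± 0.14 for Atrip to -0.04 ± 0.08 for Chek1. Of the 10, 0 passed limma's test, against 0.0148% of all genes, and 3 (Atr, Atrip and Hus1) had an unadjusted p under 0.05, against 11.1%. No member had every double mutant array below every wt array, against 8.24% of all genes. Without double mutant replicate 3, 3 members (Atr, Atrip and Hus1) were lower and passed limma's test (adjusted p 0.00542 to 0.0124), against 12.2% of all genes. Without replicate 1 these differences were -0.26, -0.41 and -0.21, and none passed, nor did any without replicate 2. With replicate 3 as the only double mutant they were 0.01, -0.15 and 0.02.

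The interaction subtracts the acd against wt difference of each gene from its double against p53 difference, and tests whether the effect of acd depends on p53. Of the 10 members 0 passed limma's test, against 0% of all genes, and 0 had an unadjusted p under 0.05, against 3.93%. Its median was -0.22 (-0.01 over all genes), with Hus1 at -0.44 ± 0.23, Clspn at -0.40 ± 0.29, Atrip at -0.34 ± 0.20 and Chek1 at -0.22 ± 0.12 (limma adjusted p = 0.879 each). Without double mutant replicate 3, 0 members passed, against 3.25% of all genes.

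The main Chek1 probe set is of a type that can also match other transcripts. The 10 genes were read by 20 probe sets in all, of which 18 passed the filter. All 20 lay below 0 in double against p53, from -0.45 to -0.03, and none passed when every named probe set was tested. Both Clspn probe sets measured alike, at -0.42 and -0.44, as did both of Atm, at -0.27 and -0.21. The other Atr probe sets measured -0.20 and, for one that did not pass the filter, -0.03, where the main one measured -0.42. In double against wt they measured -0.07 and -0.04, where the main one measured -0.49. The weaker Hus1 probe set, with a mean of 6.31 against 8.88, measured -0.17. Of the 5 Chek1 probe sets the 3 brightest measured -0.14, -0.13 and -0.29, and the other 2, below the array medians, -0.08 and -0.05. In acd against wt the weaker probe sets of Clspn and Hus1 measured 0.24 and 0.21, where the main ones measured -0.02 and -0.01. The 3 brightest Chek1 probe sets measured 0.07, 0.17 and -0.04 there, and 0.11, 0.07 and 0.10 in p53 against wt.

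**Figure D4:**
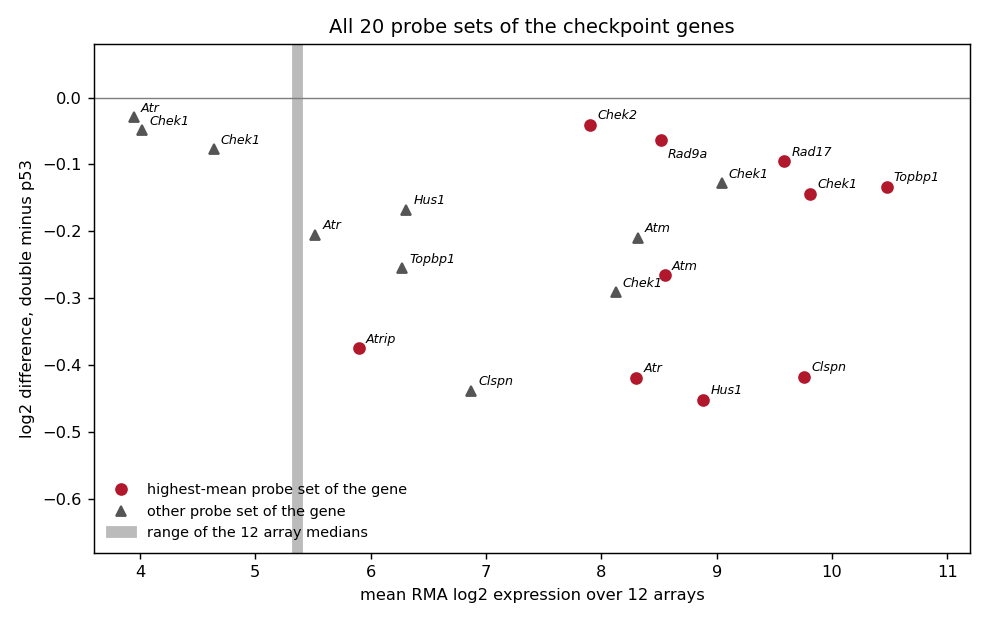
The log2 difference of double minus p53 (y axis) against the mean RMA log2 expression (x axis) for each of the 20 probe sets, labelled by gene. All points lie below 0, and the 3 dimmest, left of the grey band of array medians, lie between -0.08 and -0.03.

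Other genes of the pathway came from lists set beside the members. Of the partners of the clamp, its loader and the fork, 12 of 13 were measured and tested and 0 passed limma's test in any of the 6 comparisons. In double against p53 their median was -0.06 and 7 of 12 lay below 0. Timeless, of the complex that travels with the fork, measured 9.40, 9.88 and 10.09 in double mutants, against 10.10, 10.07 and 10.10 in p53 embryos (-0.30 ± 0.13, adjusted p = 0.463). Tipin, its partner, measured -0.14 ± 0.07 and Rpa1, which coats single-stranded DNA, -0.18 ± 0.08. In acd against wt the median was 0.02, with Rhno1 at -0.08 and Rpa2 at 0.09.

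Sensors and mediators of double-strand breaks, the ATM side of the pathway, had 10 of 10 genes tested and 0 passing in any comparison. In double against p53 their median was -0.15, with 7 of 10 below 0. Nbn and Mre11a, subunits of the complex that brings ATM to breaks, measured -0.24 ± 0.09 and -0.32 ± 0.14 (limma adjusted p = 0.463 each). Mre11a lay at 8.12, 8.29 and 8.75 in double mutants, against 8.54, 8.70 and 8.87 in p53 embryos, low in replicates 1 and 2. The ubiquitin ligase Rnf8 measured -0.13 in that comparison and -0.10 in acd against wt, and H2ax, the histone that ATM and ATR mark at damage, -0.07 in acd against wt.

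The kinases related to ATM and ATR (Prkdc, Mtor, Smg1 and the inactive Trrap) and the TELO2 cofactors that stabilise this kinase family were 7 of 7 tested, and 0 passed in any comparison. All 7 lay below 0 in double against p53 (median -0.22) and in acd against wt (median -0.11). Telo2 measured 7.39, 7.48 and 7.66 in double mutants, against 7.79, 7.95 and 7.81 in p53 embryos (-0.34 ± 0.09, limma adjusted p = 0.463). Telo2 lay below all p53 embryos in each of the 3 double mutants, as did 5.01% of all tested genes. Tti1 and Tti2, which bind Telo2, measured -0.19 ± 0.09 and -0.23 ± 0.11.

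Of the cell cycle effectors of the checkpoint, 9 of 10 were measured and tested, 0 passed in any comparison, and 8 of 9 lay below 0 in double against p53 (median -0.12). Pkmyt1 and Wee1, the kinases that hold Cdk1 inactive, measured -0.12 ± 0.08 and -0.19 ± 0.13, and Cdc25c, the phosphatase that CHK1 opposes, -0.14 ± 0.09. Pkmyt1 and Cdk1 measured 0.08 and 0.06 in acd against wt.

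Many checkpoint genes are transcribed in proliferating cells, so S phase and mitosis genes were set beside them. Of 12 S phase genes 12 lay below 0 in double against p53 (median -0.17) and 11 lay above 0 in acd against wt (median 0.05), and 0 passed. Ccne1, cyclin E1, measured -0.19 ± 0.08 in double against p53 and 0.18 ± 0.08 in acd against wt (limma adjusted p = 0.463 and 0.99997). Pcna and Mcm7, of the replication fork, measured -0.16 and -0.21 in double against p53. Of 9 mitosis genes 7 lay below 0 in double against p53 (median -0.13), with Aurkb, a mitotic kinase, at -0.26 ± 0.10, Cenpf, a kinetochore protein, at -0.20 ± 0.14 and Ccnb2, cyclin B2, at 0.12 ± 0.07, and 0 passed. In acd against wt Aurkb measured 0.18 ± 0.10 and the proliferation marker Mki67 -0.19 ± 0.15. The S phase list averaged -0.42, -0.14 and 0.06 relative to wt in double mutants 1 to 3, and the mitosis list -0.42, -0.02 and 0.08, where the members averaged -0.50, -0.24 and 0.03. The part of cell proliferation in the members' values was not tested.

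The p53 target readouts were laid out differently over the samples. They averaged -0.27, -0.28 and -0.35 relative to wt in double mutants 1 to 3, -0.27, 0.65 and 0.81 in acd embryos, and -0.38, -0.28 and -0.28 in p53 embryos. Single readouts spread unequally between double mutants, with SDs of 0.0043 for Cdkn1a, 0.22 for Aen, 0.24 for Sesn2 and 0.31 for Trp53inp1 (n = 3). In double against acd, Phlda3 measured -0.68 ± 0.20, Ccng1 -1.19 ± 0.39 and Cdkn1a -0.55 ± 0.19 (limma adjusted p = 0.371 each).

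**Figure D5:**
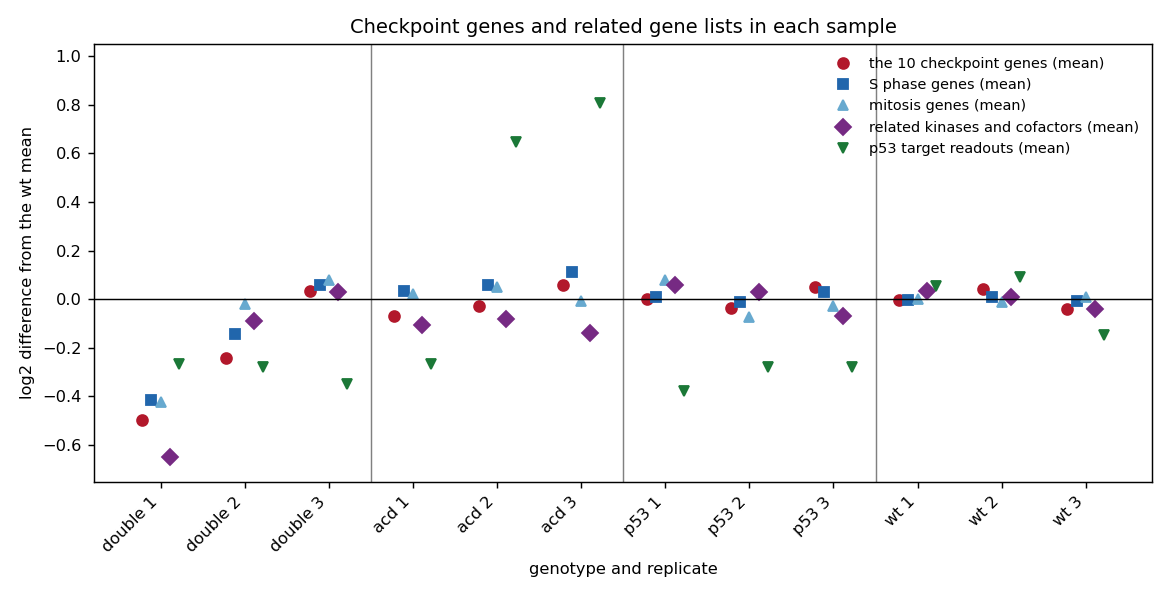
The log2 difference from the wt mean (y axis) averaged over the 10 checkpoint genes and over each of 4 other lists, in each sample (x axis). Checkpoint, S phase and related kinase genes are lowest in double mutant 1, while p53 target readouts are high only in acd replicates 2 and 3, at 0.65 and 0.81.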

How the data were processed

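RNA of whole embryos was labelled from 250 ng of total RNA and hybridised to Affymetrix 3' arrays, 1 array per sample, per the labels' protocols. The deposited values are log2 expression per probe set, made by the authors with justRMA, per the series' design text and the submitters' processing notes. RMA gives all arrays nearly 1 distribution, which hides changes in total RNA, and no signal over background is given. For arrays, the number of samples limits the precision.

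Groups came from the sample titles. Of 45101 probe sets, 34945 had 1 gene symbol, 932 several and 9160 others, not controls, none here. RefSeq tables (GRCm38.p6) matched 34741 and changed 0 symbols. A gene, read by its highest-mean probe set, was tested if 3 or more arrays had it over their 40th percentile (13501 of 18193). limma 3.58.1 (R 4.3.3) fitted a mean per genotype to all 12 arrays (8 residual degrees of freedom), two-sided, with Benjamini-Hochberg adjustment over all tested genes at 0.05. On simulated data, with spread averaged over genotypes, it found 26% of differences of 0.5 in double against p53, and 87% of differences of 1. The larger spread of double mutants was not simulated. Named are the members, Acd, Cdkn1a, Ccng1, Phlda3, from each pathway list the 3 genes with the smallest p in double against p53 and the 2 in acd against wt, and the 5 genes most like the members' mean. Others were named after their values were seen. The members and lists were chosen with earlier results of these data known. The main fit did not pair samples by replicate number. The p53 transcript and the proteins' sequences were not analysed here. Alternatives were other variance models, array weights, filters, probe set rules, normalizations, a replicate block, a sex term, another threshold, only the genotypes compared, and leaving out arrays.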

Additional observations from a re-analysis of the deposited data

How the results depend on the processing

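Leaving out each array in turn, the number of members that passed ran from 0 to 4 in double against p53, from 0 to 3 in double against acd and from 0 to 3 in double against wt, each highest without double mutant replicate 3. The median difference of the 10 members ran from -0.37 to -0.084 in double against p53, from -0.35 to -0.042 in double against acd, from -0.37 to -0.052 in double against wt and from -0.38 to -0.073 in the interaction, in each lowest without double mutant replicate 3 and nearest 0 without replicate 1. With double mutant replicate 3 as the only double mutant, assumed to vary like the other groups, these medians were 0.021, 0.043, 0.025 and 0.0018. With array weights 3 members passed in double against acd (Atrip, Chek2 and Hus1, against 13.1% of all genes) and 3 in double against wt (Atr, Atrip and Hus1, against 13.4%). With a sex term the median was -0.34 in double against p53, -0.38 in double against acd and -0.40 in the interaction. This term rests on wt and double mutants alone. The only double mutant with Y-linked transcripts, replicate 1, had the lowest median of the 10 members. With the replicate block the median in double against p53 was -0.20 and 0 members passed in any comparison. Same-numbered samples correlated at -0.23 to 0.39 over genes, with 7 of 18 pairs over 0.1. Differently numbered samples correlated at -0.39 to 0.28, with 9 of 36 pairs over 0.1. Whether samples of the same number shared a batch was not tested. The block changed no member's call. Over all genes the calls were 1 in place of 2 in acd against wt and in double against wt. In acd against wt and p53 against wt 0 members passed in any setting, with medians of -0.04 to 0.11 and -0.01 to 0.12. The cause of these changes was not tested, beyond the arrays left out. Probe sets near the array medians, such as that of Atrip, can show compressed differences.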

Other observations

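The 5 tested genes outside the list whose values over the 12 arrays were most like the mean of the 10 members were Ajuba, Cd2ap, Greb1l, Ddx20 and Elac2, with Pearson r of 0.985 to 0.993. Of the 13491 genes compared, 5.34% had an r over 0.9. Over the 10 arrays without double mutants 1 and 2 their r was 0.90, 0.82, 0.84, 0.80 and 0.74. Ajuba, a LIM domain protein of cell junctions, measured 9.46, 9.81 and 10.21 in double mutants, against 10.23, 10.14 and 10.30 in p53 embryos. Greb1l measured 7.43, 8.16 and 9.39 in double mutants, against 9.03, 8.93 and 9.26 in p53 embryos, a wider spread than that of any member. Among the members themselves, the 45 pairs had a median r of 0.26 over the 10 arrays without double mutants 1 and 2, from -0.62 for Rad17 and Chek2 to 0.76 for Atr and Hus1. These correlations describe arrays that share their normalization.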
